A study of Mus musculus with 24 samples.

Results

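Zinc and manganese enter and leave hepatocytes through dedicated carriers, and 9 genes of this system were followed in the liver of mice with and without the major urinary protein (Mup) gene cluster. The 9 genes, of 25746 listed in the count data, are the importers Slc39a8, Slc39a14, Slc39a4 and Slc39a5, the exporters Slc30a1 and Slc30a10, the transcription factor gene Mtf1, and the metallothionein genes Mt1 and Mt2. They were chosen by gene family, with earlier results of the same libraries known. The KO effect in males is treated as one of the values in view when they were chosen, so in that contrast the values of the 9 genes are a description and support nothing. Hepatic mRNA was sequenced in 24 mice aged 12 weeks, 6 in each of 4 groups, with 1 library per mouse. The groups were male wildtype (mWT), male knockout (mKO), female wildtype (fWT) and female knockout (fKO) mice on the C57BL/6N background. In KO mice the whole Mup cluster was deleted on both chromosomes with CRISPR/Cas9, and all KO mice descend from a single male founder. KO and WT mice came from crosses of heterozygous parents, and both genotypes received the same standard chow and were imaged by microCT under isoflurane after a short fast, before cardiac puncture and snap freezing of the liver. The KO mice are thus 1 line, and other lines were not analysed here.

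Carriers of the ZIP family (Slc39a genes) move zinc and other divalent metals into the cytosol, whereas carriers of the ZnT family (Slc30a genes) move them out of it. In hepatocytes ZIP14 takes up manganese from blood, ZnT10 exports it into bile and ZIP8 retrieves it from bile, so these 3 carriers are known for setting the manganese content of the body. Metallothioneins are small cysteine-rich proteins that bind zinc, and their genes are induced by the zinc-sensing factor MTF1, by glucocorticoids and in the acute phase response.

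MTF1 binds metal response elements (MRE), whose core reads TGCACNC or TGCGCNC. The 250 bases before the RefSeq start site (GRCm38.p6) are shown for the metallothionein genes, which varied most among mice, and for both carriers whose levels in mKO mice did not overlap those in mWT mice. The share of all genes whose groups do not overlap was not computed, for this or any other comparison. Nothing is therefore read from a lack of overlap. Capitals mark MRE cores on either strand. In Slc30a10 the first capital run holds 2 overlapping cores, 1 on each strand.

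Mt2: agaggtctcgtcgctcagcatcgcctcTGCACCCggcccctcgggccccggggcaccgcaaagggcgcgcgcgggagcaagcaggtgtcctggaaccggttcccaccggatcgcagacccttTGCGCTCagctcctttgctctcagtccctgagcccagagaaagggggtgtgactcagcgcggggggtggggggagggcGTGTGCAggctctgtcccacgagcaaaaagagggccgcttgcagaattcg

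Mt1: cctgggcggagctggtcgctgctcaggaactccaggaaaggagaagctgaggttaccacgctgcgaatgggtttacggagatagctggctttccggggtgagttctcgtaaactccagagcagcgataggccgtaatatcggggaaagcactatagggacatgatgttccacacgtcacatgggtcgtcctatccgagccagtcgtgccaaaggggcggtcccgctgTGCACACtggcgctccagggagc

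Slc30a10: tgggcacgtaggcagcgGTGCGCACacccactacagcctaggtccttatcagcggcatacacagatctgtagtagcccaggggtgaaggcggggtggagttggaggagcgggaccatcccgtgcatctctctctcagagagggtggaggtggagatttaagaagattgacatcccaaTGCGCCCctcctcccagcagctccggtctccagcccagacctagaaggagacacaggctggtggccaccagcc

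Slc39a8: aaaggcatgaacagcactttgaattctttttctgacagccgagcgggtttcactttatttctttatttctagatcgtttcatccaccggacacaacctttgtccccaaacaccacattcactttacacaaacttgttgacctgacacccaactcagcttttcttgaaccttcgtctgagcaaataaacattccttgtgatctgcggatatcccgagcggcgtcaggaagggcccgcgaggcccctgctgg

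The 4 stretches lie on the plus strand, for Mt2 at chr8:94172368-94172617, for Mt1 at chr8:94178839-94179088, for Slc30a10 at chr1:185454598-185454847 and for Slc39a8 at chr3:135825029-135825278. Mt2 held 3 cores, at 223, 128 and 50 bases before the start, and Mt1 held 1, at 23 bases. Slc30a10 held 3 cores, at 233, 232 and 73 bases before the start, and Slc39a8 held none in the stretch shown. Among 32851 mouse promoter windows of the same length, 21.4% held at least 1 such core and 1.26% held at least 3. A second RefSeq start of Slc39a8 has 1 core and 1 E-box (CACGTG, the site of the clock factors, present in 6.02% of windows), Slc30a1 has 1 core, Slc39a5 has 1 core before 1 of its 2 starts, and Mtf1 has none. These are matches of letters and not measured binding. All annotated transcripts of Mt2 start downstream of the end of the stretch shown, by 47 and 243 bases. For Mt1 the annotated transcripts start at −6, 123 and 153 bases from that end, where positive values lie downstream. The bases between were not searched. The numbers of cores given for Mt1 and Mt2 therefore hold for the stretches shown only, and not for the bases just before those downstream starts. Promoter windows were available for 7 of the 9 genes, and Slc39a14 and Slc39a4 are named without one.

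The total count per library ranged from 15361901 to 26261394, so that 3 counts corresponded to at most 0.195 CPM (counts scaled to the library size). The summed level of 22 Mup genes was 17020 to 37370 CPM in mWT and 3393 to 5256 CPM in fWT mice, and it stayed under 0.458 CPM in every KO mouse, as the labels state. Of the 9 genes, 8 passed the filter on low counts and were tested within the 12330 genes of the whole table, and Slc39a5 did not pass. Levels are given as CPM after TMM scaling, and levels of different genes are compared per length as RPKM. All values come from whole liver, in which fewer cells of a type and less RNA per cell cannot be told apart. Hepatocyte genes (5 markers) summed to 86840 to 142900 CPM over the 24 mice, and pancreatic acinar genes (4 markers), which would show carried-over pancreas, summed to at most 0.879 CPM.

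On the RPKM scale, averaged over the 24 mice, the mean was 76.3 for Mt2, 54.1 for Mt1 and 27.3 for Slc39a14, 10.97 for Slc39a4, 9.66 for Slc30a1, 6.36 for Slc30a10, 3.65 for Slc39a8, 2.17 for Mtf1 and 0.192 for Slc39a5. This order rests on the union of annotated exons as the length, which was 1246 bp for Mt1 and 588 bp for Mt2. Before division by length, Mt1 (67.4 CPM) was above Mt2 (44.9 CPM). The place of the metallothioneins in the RPKM order also depended on the group. In fWT mice the mean was 120 RPKM for Mt2, 87.0 for Mt1 and 27.1 for Slc39a14. In mKO mice it was 24.8, 17.6 and 26.5, so that Slc39a14 came first there with these lengths. The genes also differed in their spread among mice. The ratio of the highest to the lowest of the 24 mice was 115 for Mt2 and 38.7 for Mt1, which placed them at percentiles 99.1 and 98.8 of all genes tested, where the median ratio was 1.84. Mtf1, with a ratio of 1.34, lay at percentile 5.47.

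**Figure D1:**
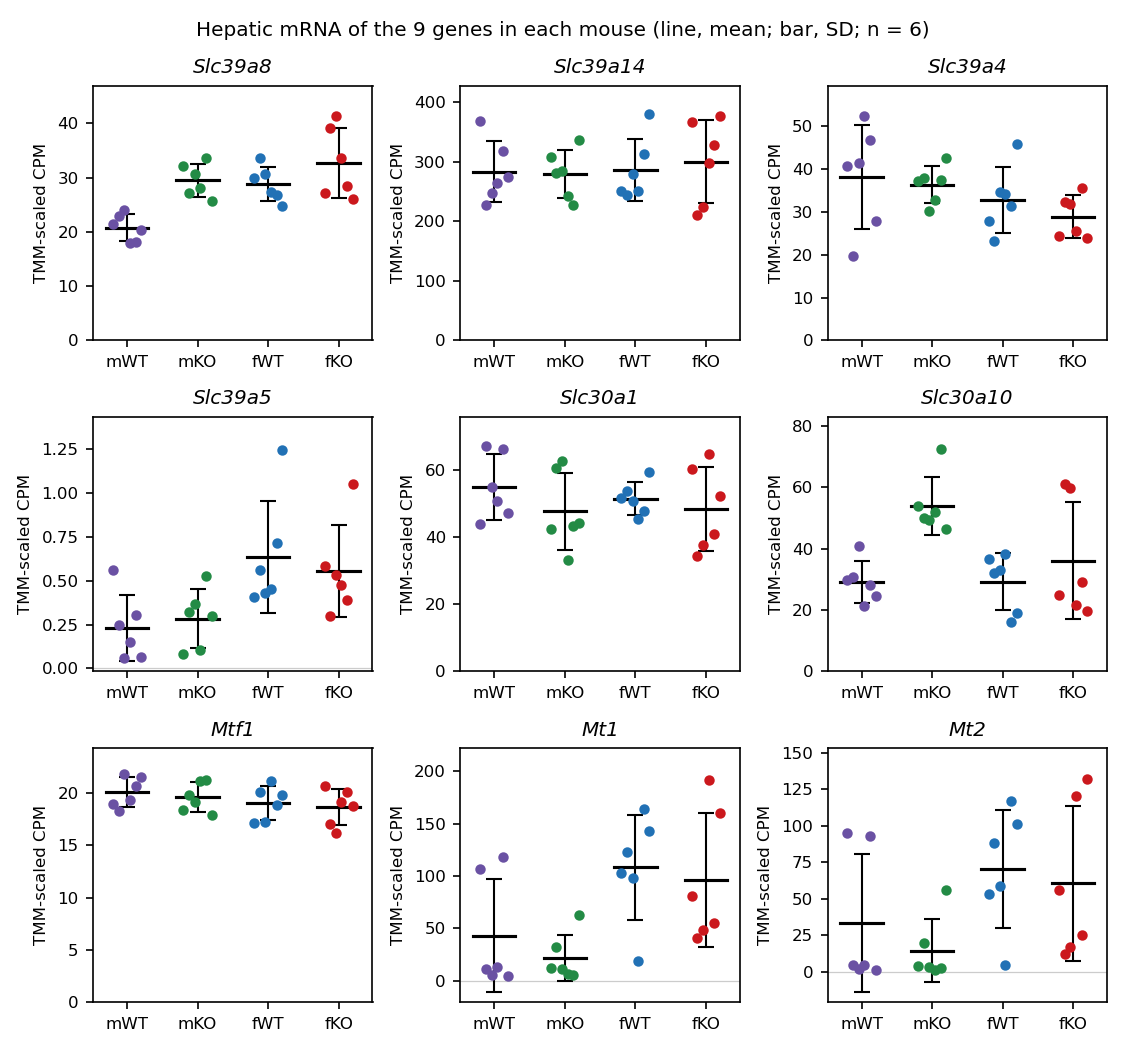
TMM-scaled CPM of each of the 9 genes (1 panel per gene, y axes starting at or just below 0) in the 6 mice of mWT, mKO, fWT and fKO. Points are mice, lines are means and bars are SD. Slc39a8 is lowest in mWT, Slc30a10 is highest in mKO apart from 2 fKO mice near 60 CPM, and Mt1 and Mt2 scatter widely within each group.

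Slc39a8 encodes ZIP8, an importer of zinc and manganese. Its level in mWT mice was 17.9 to 23.97 CPM with a median of 20.9. In mKO mice it was 25.7 to 33.5 CPM with a median of 29.3. The 2 male groups did not overlap, and the mWT mice were also below every female mouse. In fWT mice the level was 24.7 to 33.5 CPM with a median of 28.6, and in fKO mice 26.1 to 41.4 CPM with a median of 31.0. Ordered by mean, mWT came first with 20.8 ± 2.51 CPM (SD, n = 6), then fWT with 28.8 ± 3.17 CPM, mKO with 29.5 ± 3.05 CPM and fKO with 32.6 ± 6.47 CPM. The last 3 groups overlapped with each other. The log2 fold change of mKO against mWT was 0.51 (standard error, SE, 0.110, 95% interval 0.28 to 0.73).

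Slc30a10 encodes ZnT10, the manganese exporter of the bile canaliculus. It was at 21.2 to 40.8 CPM in mWT mice, with a median of 28.9. In mKO mice it was at 46.5 to 72.6 CPM, with a median of 51.02, and every mKO mouse was above every mWT and fWT mouse. The fWT mice were at 16.2 to 38.4 CPM, with a median of 32.5. The fKO mice were split, since mice 2 and 3 were at 61.0 and 59.7 CPM while the other 4 were at 19.9 to 29.1 CPM. The means were 29.2 ± 6.73 CPM in mWT, 29.2 ± 9.30 CPM in fWT, 36.0 ± 19.1 CPM in fKO and 54.1 ± 9.43 CPM in mKO mice (SD, n = 6 each). On the log2 scale, mKO exceeded mWT by 0.89 (SE 0.276, 95% interval 0.32 to 1.46).

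Across the whole table, 0.211% of the genes tested had an adjusted p-value under 0.05 for mKO against mWT, and 3.52% had an unadjusted p-value under 0.01, the cut-off of the study's methods. Of the 8 genes tested here, 1 (Slc39a8, higher) and 2 (Slc39a8 and Slc30a10, both higher) met these respective criteria, from which nothing is read because the genes were chosen with this contrast in view. The call of Slc39a8 was lost when the Mup genes were removed before testing and in 8 of 12 fits that left out 1 male mouse. Without the Mup genes its log2 fold change was still 0.51. Over all genes 26 were called in males, 22 of them lower in mKO mice, and 2 were called with the Mup genes removed. The share of 0.211%, and with it the adjusted p-value of Slc39a8, thus depends on the deleted genes. The median log2 fold change of the 8 genes in males was −0.05, beside −0.002178 over all genes.

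The female KO effect was treated as not used in the choice of the genes, although which values were used is not recorded, and neither carrier passed the test in it. Slc39a8 had a log2 fold change of 0.18 for fKO against fWT (SE 0.108, 95% interval −0.04 to 0.40, adjusted p = 0.929 by the quasi-likelihood test of edgeR). For Slc30a10 it was 0.30 (SE 0.274, 95% interval −0.27 to 0.87, adjusted p = 0.944). The Slc30a10 value rested on fKO mice 2 and 3, and without mouse 2 it was 0.09 and without mouse 3 it was 0.10. By edgeR, 0 of the 8 genes had an adjusted p-value under 0.05 in females (0.0892% of all genes did), 0 had an unadjusted p-value under 0.01 (0.868% of all genes) and 0 had one under 0.05 (4.87% of all genes). DESeq2 called 0 of the 8, and 0.146% of all genes. The edgeR share of 0.0892% stands for 11 genes, all lower in fKO mice, and 0 genes were called with the Mup genes removed. The median log2 fold change of the 8 genes was −0.06, beside −0.002631 over all genes.

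The difference between the male and the female KO effect was tested directly, although this contrast contains the male one. For Slc39a8 the effects differed by 0.33 on the log2 scale (SE 0.154, 95% interval 0.01 to 0.64, adjusted p = 0.829 by edgeR). For Slc30a10 they differed by 0.59 (SE 0.388, 95% interval −0.22 to 1.39, adjusted p = 0.881 by edgeR). With edgeR 0 of the 8 genes were called (0.00811% of all genes were) and 1, Slc39a8, had an unadjusted p-value under 0.05 (5.99% of all genes). DESeq2 called 0 of the 8 and 0.0892% of all genes. The KO effects on these carriers were thus not shown to differ between the sexes.

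**Figure D2:**
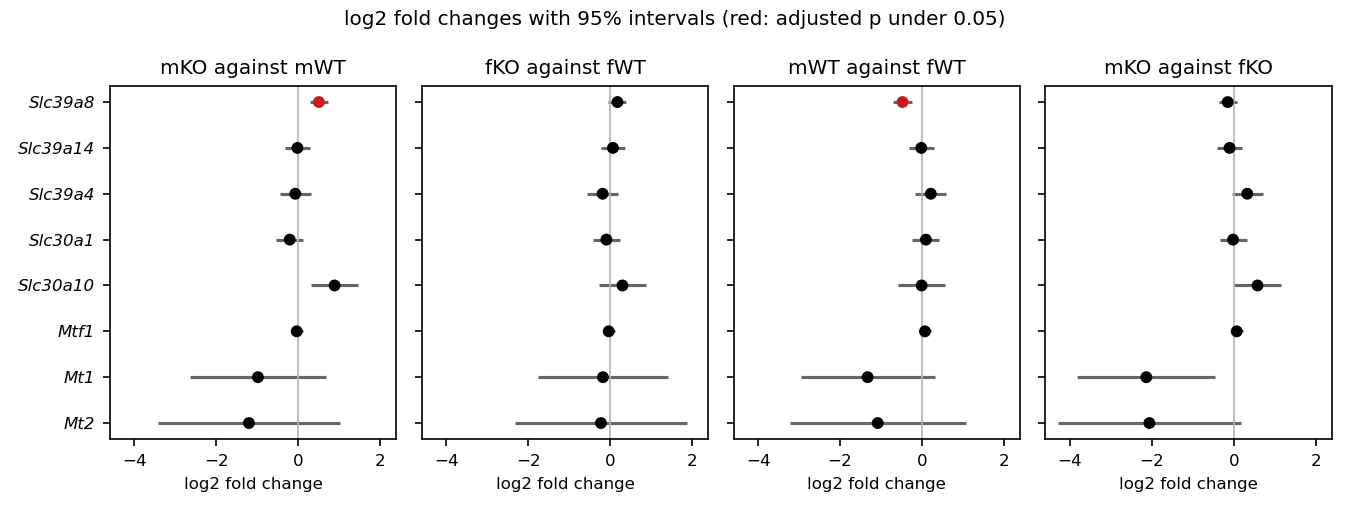
log2 fold changes (points) with 95% intervals (lines) of the 8 tested genes for mKO against mWT, fKO against fWT, mWT against fWT and mKO against fKO, with adjusted p-values under 0.05 in red. Slc39a8 is red at 0.51 in the first panel, where the genes were chosen, and at −0.47 in the third, which shares the mWT mice. The intervals of Mt1 and Mt2 span several log2 units.

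Slc39a14, Slc39a4 and Slc30a1 were called in none of the 5 comparisons and overlapped between all groups. Slc39a14 encodes ZIP14, the manganese and zinc importer of the hepatocyte surface, and ranged from 228 to 368 CPM in mWT, 227 to 337 CPM in mKO, 244 to 380 CPM in fWT and 211 to 377 CPM in fKO mice. Its medians were 270, 283, 265 and 313 CPM in that order, and its log2 fold change was −0.02 in males (SE 0.147) and 0.07 in females (SE 0.147, 95% interval −0.23 to 0.37, adjusted p = 0.974 by edgeR). The lowest 2 fKO mice, at 211 and 224 CPM, were mice 2 and 3, the same that were highest in Slc30a10.

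Slc39a4 encodes ZIP4, known for zinc absorption in the intestine, and was present in liver at 19.7 to 52.4 CPM in mWT (median 41.1), 30.2 to 42.7 CPM in mKO (median 37.3), 23.3 to 45.8 CPM in fWT (median 32.8) and 23.8 to 35.5 CPM in fKO mice (median 28.7). All groups overlapped. The female KO effect was −0.18 (SE 0.184, 95% interval −0.56 to 0.20, adjusted p = 0.946 by edgeR).

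Slc30a1 encodes ZnT1, the zinc exporter of the plasma membrane and a target of MTF1. Its range was 43.8 to 67.2 CPM in mWT (median 52.9), 33.2 to 62.6 CPM in mKO (median 43.7), 45.3 to 59.4 CPM in fWT (median 51.2) and 34.3 to 64.9 CPM in fKO mice (median 46.6). Again all groups overlapped, with a log2 fold change of −0.21 in males (SE 0.160) and −0.09 in females (SE 0.160, 95% interval −0.42 to 0.24, adjusted p = 0.967 by edgeR).

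Slc39a5 encodes ZIP5, known from the pancreas and intestine, and was close to the limit of detection, with 1 to 28 raw counts per library. It was at 0.232 ± 0.189 CPM in mWT, 0.284 ± 0.168 CPM in mKO, 0.635 ± 0.319 CPM in fWT and 0.556 ± 0.263 CPM in fKO mice (SD, n = 6 each). Ranges were 0.0586 to 0.562 CPM in mWT and 0.409 to 1.25 CPM in fWT mice, which overlapped. In a fit without the filter on low counts its log2 fold change of mWT against fWT was −1.45 (SE 0.455, adjusted p = 0.0368 by edgeR). That fit called 1948 of 18682 genes between WT mice, so the call is not particular to Slc39a5. The fWT mouse 6, at 1.25 CPM, stood above the other fWT mice (0.409 to 0.713 CPM), and its part in this value was not tested. The sex difference in KO mice was −0.97 (SE 0.443, adjusted p = 0.196 by edgeR).

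Mtf1 was the steadiest of the 9 genes. Its means were 20.1 ± 1.45 CPM in mWT, 19.6 ± 1.40 CPM in mKO, 19.1 ± 1.63 CPM in fWT and 18.6 ± 1.72 CPM in fKO mice (SD, n = 6 each), all within 16.2 to 21.8 CPM. Its log2 fold change was −0.04 in males (SE 0.074) and −0.03 in females (SE 0.073, 95% interval −0.18 to 0.12, adjusted p = 0.9747 by edgeR). On the opposite strand, 721 bp of its exons overlap 1110065P20Rik, which had 2623 counts over all libraries, so reads in the overlap cannot be assigned with certainty. Exons of Slc30a10 (533 bp, Gm2061), Mt2 (432 bp, Gm45774) and Slc30a1 (468 bp, 1700034H15Rik) also overlap opposite-strand genes, which the count data do not list. Whether reads from those genes were counted in Slc30a10, Mt2 and Slc30a1 is not known, since the strand setting is not given.

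Mt1 and Mt2 code for the zinc-binding metallothioneins of the liver and lie 5513 bp apart on chromosome 8. Mt1 was at 4.96 to 118 CPM in mWT mice with a median of 12.1, and at 5.70 to 62.9 CPM in mKO mice with a median of 12.1. In females it was at 18.8 to 164 CPM in fWT (median 113) and 41.0 to 192 CPM in fKO mice (median 67.9). All pairs of groups overlapped. The male groups were made of many low mice and a few high ones, since 2 mWT mice (mice 1 and 5, at 107 and 118 CPM) stood above the other 4, which were at 4.96 to 12.9 CPM.

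Mt2 repeated this distribution with a wider range. It was at 1.15 to 94.97 CPM in mWT (median 4.80), 1.43 to 56.0 CPM in mKO (median 3.73), 5.07 to 117 CPM in fWT (median 73.5) and 12.7 to 132 CPM in fKO mice (median 40.8). The mWT mice 1 and 5 were again the high ones, at 94.97 and 93.2 CPM, and fWT mouse 4 was the lowest fWT mouse for both genes, at 18.8 CPM for Mt1 and 5.07 CPM for Mt2. The intervals were correspondingly wide. The log2 fold changes in males were −0.98 for Mt1 (SE 0.796) and −1.20 for Mt2 (SE 1.07). In females they were −0.17 for Mt1 (SE 0.766, 95% interval −1.77 to 1.42, adjusted p = 0.990 by edgeR) and −0.22 for Mt2 (SE 1.01, 95% interval −2.33 to 1.89, adjusted p = 0.990 by edgeR).

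**Figure D3:**
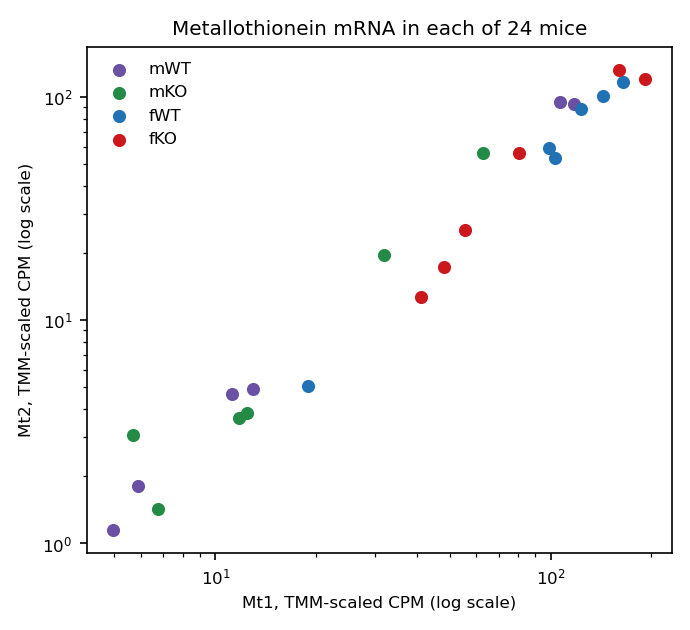
Mt1 (x axis) and Mt2 (y axis) in each of the 24 mice, TMM-scaled CPM on log scales, coloured by group. The mice lie along 1 line from 4.96 CPM of Mt1 and 1.15 CPM of Mt2 to 192 and 132 CPM, and the mice with less than the 41.0 CPM of Mt1 in the lowest fKO mouse are male except fWT mouse 4.

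Males and females of the same genotype were compared next. Between WT mice, 17.3% of all genes tested had an adjusted p-value under 0.05, and of the 8 genes 1 did, Slc39a8. Its level was lower in mWT than in fWT mice by a log2 fold change of −0.47 (SE 0.110, 95% interval −0.70 to −0.25, adjusted p = 0.00334 by edgeR), with all 6 mWT mice below all 6 fWT mice. The adjusted p-value stayed between 0.000828 and 0.0111 under all alternatives. This comparison shares the mWT mice with the male KO effect, so the low mWT level enters both. Its p-value and the stability of that p-value are therefore a description too, and nothing is read from them. Between KO mice, 14.4% of all genes were called and Slc39a8 was not, with a log2 fold change of −0.15 (SE 0.108, 95% interval −0.37 to 0.08, adjusted p = 0.394 by edgeR).

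For the metallothioneins, the sex difference of mWT against fWT was −1.33 for Mt1 (SE 0.785, adjusted p = 0.268 by edgeR) and −1.08 for Mt2 (SE 1.03, adjusted p = 0.521 by edgeR). In mKO against fKO mice it was −2.14 for Mt1 (SE 0.810, 95% interval −3.82 to −0.45, adjusted p = 0.0855 by edgeR) and −2.06 for Mt2 (SE 1.08, adjusted p = 0.217 by edgeR). For Slc30a10 the value for mKO against fKO was 0.58 (SE 0.273, adjusted p = 0.165 by edgeR), and the groups overlapped. This comparison shares the mKO mice with the male KO effect. Of the 8 genes 0 were called between KO mice by edgeR, 2 had an unadjusted p-value under 0.05 (Mt1 and Slc30a10), and DESeq2 called 1 (Mt1, adjusted p = 0.0270). The corresponding shares over the whole table were 28.4% with edgeR and 16.1% with DESeq2, so these counts are not above the background. Over the 12 fits that left out 1 KO mouse, Mt1 passed the threshold only without mKO mouse 6, its highest mKO mouse (log2 fold change −2.80, adjusted p = 0.0369 by edgeR). Slc30a10 passed only without fKO mouse 2, its highest fKO mouse (log2 fold change 0.80, adjusted p = 0.0474 by edgeR). In the other fits the adjusted p-values by edgeR reached 0.168 for Mt1 and 0.297 for Slc30a10. The 2 fits with a call also called 1499 of 12318 and 1726 of 12310 genes, so nothing is read from them.

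Some markers of other liver cells were also lower in mWT than in fWT mice, where 17.3% of all genes were called in either direction. Of 4 Kupffer cell markers 3 were lower in mWT than in fWT mice (Clec4f, Cd5l and Vsig4), and their summed level was 63.0 to 128 CPM in mWT and 113 to 211 CPM in fWT mice. Of 4 endothelial markers 2 were lower (Stab2 and Clec4g), with sums of 103 to 123 CPM in mWT and 117 to 160 CPM in fWT mice, and of 4 stellate cell markers 1 was lower (Dcn), with sums of 152 to 281 and 230 to 299 CPM. Cholangiocyte and red blood cell markers did not share this direction. Of 4 cholangiocyte markers 2 were tested, with log2 fold changes of −0.75 for Epcam and 0.31 for Sox9, neither of which was called, and sums of 1.99 to 4.50 CPM in mWT and 3.05 to 5.07 CPM in fWT mice. All 3 red blood cell markers had positive values, of which Alas2 was called (3.44, adjusted p = 1.445e-13 by edgeR). The haemoglobin genes Hba-a1 (0.44) and Hbb-bs (0.31) were not called. The red blood cell sums, 142 to 197 CPM in mWT and 34.0 to 55.3 CPM in fWT mice, differed mainly through Alas2, with means of 131.5 and 12.08 CPM. None of these markers was at 0 in every mouse of a group, and their part in the Slc39a8 difference was not tested. Between mKO and mWT mice the Kupffer cell sums overlapped, at 62.2 to 170 CPM in mKO mice.

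Within groups, some of the 9 genes varied together. Pearson's r was taken over the 24 mice on log2(CPM + 0.5) values after subtraction of each group's mean, as a description without a test, since the mice share the sequencing run and each pair of values shares a library. Slc39a8 and Slc30a10 had r = 0.77, and both ran opposite to Slc39a14, with r = −0.74 for each. In contrast, Slc39a14 ran with Mt1 (r = 0.64) and Mt2 (r = 0.66), and Mt1 with Mt2 at r = 0.99. Slc39a4 and Slc30a1 had r = −0.25 and −0.28 with Slc39a8, 0.04 and −0.45 with Slc30a10, and −0.27 with each other. Mtf1 had r = −0.27 with Mt1 and −0.21 with Mt2. Among the fKO mice, mice 2 and 3 held the 2 highest levels of Slc39a8 (39.1 and 41.4 CPM) and of Slc30a10, and the 2 lowest levels of Slc39a14, Mt1 and Mt2. Over all genes, their libraries had the lowest chi-square per gene of any pair within a group (7.68). These 2 mice are therefore not separate examples of the pattern.

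**Figure D4:**
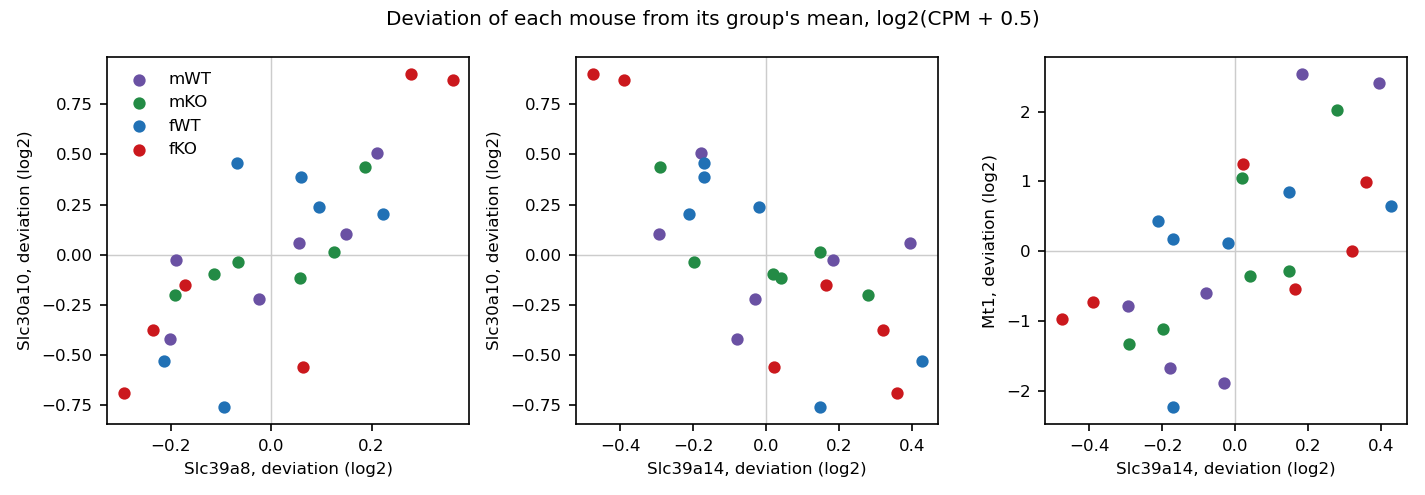
Deviation of each of the 24 mice from its group's mean on the log2(CPM + 0.5) scale, for Slc39a8 against Slc30a10 (r = 0.77), Slc39a14 against Slc30a10 (r = −0.74) and Slc39a14 against Mt1 (r = 0.64), coloured by group. The 2 fKO mice at the end of the first 2 panels are mice 2 and 3.

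The genes most like Slc39a8 within groups were Cd164 (r = 0.85), Selenoi (r = 0.83), Clock (r = 0.83), Tab2 (r = 0.80) and Mpzl1 (r = 0.80). Those most like Slc30a10 were Selenoi (r = 0.92), Loxl4 (r = 0.91), Msl1 (r = 0.88), Tmie (r = 0.88) and Cldn1 (r = 0.86). For Mt1 they were Mt2 (r = 0.99), Serpina3m (r = 0.81), Atp10d (r = 0.77), Hic2 (r = 0.74) and Ggt5 (r = 0.71), each over 24 mice. Because Clock appeared, genes of the circadian oscillator were looked up afterwards. Slc30a10 had r = 0.81 with Arntl, the partner of CLOCK, and 0.86 with Clock itself, while it had r = −0.74 with Per2, −0.71 with Per3 and −0.79 with Ciart, which are repressors expressed in another phase of the day. Slc39a8 had r = 0.57 with Arntl, 0.83 with Clock, −0.74 with Per2, −0.66 with Per3 and −0.74 with Ciart. For Cry1, Nr1d1 and Dbp the values were 0.14, 0.62 and −0.57 with Slc30a10 and 0.24, 0.48 and −0.56 with Slc39a8.

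None of these clock genes had an adjusted p-value under 0.05 for a KO effect in either sex. Unadjusted p-values by edgeR in males were 0.00462 for Per2, 0.0192 for Per3 and 0.0231 for Clock, and above 0.05 for the others. Over all genes 3.52% were under 0.01 and 10.6% under 0.05. In females only Arntl was under 0.05 (0.0377 by edgeR), beside 4.87% of all genes. The clock genes were looked up for their likeness to both carriers, so these values are a description. For mKO against mWT the log2 value was −1.11 for Per2 (SE 0.350, adjusted p = 0.216 by edgeR) and −1.05 for Per3 (SE 0.415, adjusted p = 0.354 by edgeR). It was 0.51 for Clock (SE 0.209, adjusted p = 0.369 by edgeR) and 1.36 for Arntl (SE 0.733, adjusted p = 0.536 by edgeR). For fKO against fWT it was −0.19 for Per2 (adjusted p = 0.967 by edgeR), 0.29 for Clock (adjusted p = 0.933 by edgeR) and 1.63 for Arntl (adjusted p = 0.929 by edgeR). The hour at which each mouse was sampled is not given in the sources used here, and its part in the levels of both carriers was not tested. Among glucocorticoid targets, Fkbp5 had r = 0.68 with Mt1, 0.72 with Mt2 and 0.73 with Slc39a14. Per1, which glucocorticoids also induce, had r = 0.40, 0.44 and 0.71 with these genes. The other targets were weaker or ran the other way, with 0.22, 0.23 and 0.18 for Tsc22d3, 0.26, 0.26 and 0.46 for Tat and −0.22, −0.25 and −0.16 for Sgk1. Of the 7 acute phase genes, r with Mt1 was 0.61 for Lcn2, 0.47 for Orm2, 0.47 for Hp, 0.36 for Fgb, 0.23 for Saa2, 0.15 for Saa1 and −0.09 for Hamp.

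The rest of the transport system was examined through lists of ZIP importers, ZnT exporters, metallothioneins and MTF factors, manganese and iron carriers, and manganese enzymes, which held 31 genes besides the 9, of which 25 were tested. In males 0 of the 25 were called by edgeR (0.211% of all genes were), 2 had an unadjusted p-value under 0.05 (10.6%) and DESeq2 called 0 (1.13%). In females 0 of the 25 were called by edgeR (0.0892% of all genes were), 0 had an unadjusted p-value under 0.05 (4.87%) and DESeq2 called 0 (0.146%). None of these counts was above the share over all genes. The median log2 fold changes were 0.02 in males and 0.05 in females. Mt3 and Mt4, the brain and epithelial metallothioneins, had 0 counts in all libraries.

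The sexes differed in 7 of these 25 genes in WT mice by edgeR, 5 higher and 2 lower in mWT, and in 6 of 25 in KO mice, 3 higher and 3 lower in mKO, where 17.3% and 14.4% of all genes were called. This is a description of the lists and not shown to be particular to them. Slc39a11 (ZIP11) was higher in males of both genotypes, by 0.51 in WT (SE 0.077, adjusted p = 2.44e-05 by edgeR) and 0.53 in KO mice (SE 0.077, adjusted p = 1.55e-05 by edgeR), with means of 26.4, 26.4, 18.5 and 18.2 CPM in mWT, mKO, fWT and fKO. Slc11a2, the carrier DMT1 for iron and manganese, was higher in males by 0.44 in WT and 0.37 in KO mice (SEs 0.109 and 0.108, adjusted p = 0.00603 and 0.0209 by edgeR). The zinc carriers of the secretory pathway Slc30a5 and Slc30a7 and the gene Slc30a9 were higher in mWT than in fWT mice, by 0.30, 0.24 and 0.26, and Slc39a7, the zinc importer of the endoplasmic reticulum, was higher in mKO than in fKO mice by 0.29.

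Lower in males of both genotypes were Trf (transferrin, −0.40 in WT and −0.42 in KO mice) and Glul (glutamine synthetase, a manganese enzyme, −0.40 and −0.50). Slc40a1, the iron exporter ferroportin, was lower in mKO than in fKO mice by a log2 fold change of −0.54 (SE 0.148, adjusted p = 0.0135 by edgeR). Among 12 acute phase and glucocorticoid-responsive genes, edgeR called 0 for the KO effect in males and 0 in females, with 0 calls by DESeq2. In each sex 1 of the 12 had an unadjusted p-value under 0.05, beside 10.6% of all genes in males and 4.87% in females. Between the sexes edgeR called 1 in WT mice (Sgk1, lower in mWT, log2 fold change −0.61) and 3 in KO mice (Orm2, Lcn2 and Hamp, lower in mKO, with log2 fold changes of −1.003, −1.70 and −0.72). Over all genes 17.3% and 14.4% were called, so these counts are not shown to be particular to the lists. The other 4 acute phase genes were not called between KO mice, with −0.24 for Fgb, −0.49 for Saa2, −0.11 for Saa1 and 0.09 for Hp. Mean Orm2 was 10.1 CPM in mWT and 11.9 CPM in mKO mice, and mean Lcn2 was 3.35 and 3.24 CPM. The metallothioneins are acute phase genes too, and the part of the other acute phase genes in the Mt1 values was not tested.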

How the data were processed

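The authors prepared stranded mRNA libraries from liver, sequenced 100 bp single-end reads in 1 multiplex, and ran fastp for trimming, STAR for alignment to GRCm38.p6 and featureCounts for counting. The submitters' processing notes list bcl2fastq 2.19, fastp 0.20, STAR 2.7a and edgeR 3.28.1. The deposited values are unnormalized counts for each Ensembl gene. The annotation release, the strand setting and the treatment of multi-mapping reads are not given in the sources used here. Of 25746 genes listed, 25635 were matched to GENCODE M21 of GRCm38 for symbols and exon lengths.

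The filter kept 12330 genes that reached 0.66 CPM in 6 or more of the 24 libraries. Counts were fitted with edgeR 4.0.16 in R 4.3.3 (TMM scaling, robust quasi-likelihood test, 1 mean per group over all 24 libraries), and p-values were adjusted by Benjamini-Hochberg over all genes tested. The p-values test differences between group means against the spread between these mice. The procedure was tested on simulated data. Groups and mouse numbers came from the labels. Mice with the same number were compared by the correlation of their deviations from the group means, which ranged from −0.363 to 0.219, so the numbers were not taken as pairs. No 2 libraries of a group agreed within sampling noise (lowest chi-square per gene 7.68, for fKO mice 2 and 3). Alternatives were DESeq2 1.42.0, its size factors, no filter, a fit of only the groups compared, removal of Mup genes, the replicate block and leaving out each mouse. RPKM used the union of exons, and intervals are 95% intervals of the fit. Sequences and starts are from RefSeq (GRCm38.p6), and shared stretches between genes were searched with blastn 2.17.0. Figures were drawn with matplotlib 3.10.9.

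The 9 genes and all lists were chosen with earlier results of these data known, and the clock genes after the correlations were seen. Named besides the 9 were genes of the pathway lists with an adjusted p-value under 0.05 or an unadjusted p-value under 0.01 in a contrast, and the 5 genes with the highest within-group Pearson's r to Slc39a8, Slc30a10 and Mt1. Cell type markers, the other acute phase and glucocorticoid genes, Mt3, Mt4 and the clock genes were named outside this rule, after their values were seen.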

Additional observations from a re-analysis of the deposited data

Results flagged for a closer look

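Among 36 groups of 6 mice (9 genes in 4 groups), 3 held a mouse that stood apart by Dixon's ratio beyond its 95% critical value, and chance alone flags about 1 in 20 groups. Slc30a10 in mKO mouse 5 was at 72.6 CPM, with the other mKO mice at 46.5 to 53.9 CPM. Without this mouse the log2 fold change of mKO against mWT was 0.79 in place of 0.89. Mt2 in mKO mouse 6 was at 56.0 CPM, with the other mKO mice at 1.43 to 19.7 CPM. The same mouse was the highest of its group for Mt1 (62.9 CPM) and Slc39a14 (337 CPM) and the lowest for Slc39a8 (25.7 CPM) and Slc30a10 (46.5 CPM). Slc39a5 in fWT mouse 6 was at 1.25 CPM, with the other fWT mice at 0.409 to 0.713 CPM, a value that rests on at most 28 counts.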

How the results depend on the processing

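Of 808 values of single genes under the alternatives, 753 kept their direction and their side of the threshold, 42 reversed, 9 lost and 4 gained a call; the largest main log2 fold change among those that reversed was 0.11 in size. The call of Slc39a8 in males was lost with the Mup genes removed (0.51, adjusted p = 0.134 by edgeR) and without mWT mouse 4, 5 or 6 or mKO mouse 1, 2, 3, 4 or 5, with log2 fold changes of 0.47 to 0.55 and adjusted p-values of 0.0321 to 0.165 over the 12 mice left out. The number of the 8 genes called in males was 0 to 1 over mice left out, 0 with the Mup genes removed and 2 with only the groups compared (Slc30a10, adjusted p = 0.0140 by edgeR); between KO mice it was 0 to 1 over mice left out and 1 by DESeq2. The cause was not tested. Over all genes, the male KO effect gave 26 calls, 139 by DESeq2, 49 with only the groups compared, 2 with the Mup genes removed and 19 to 59 over mice left out; the female effect gave 11 calls, 18 by DESeq2 and 0 by edgeR with the Mup genes removed (86 with an unadjusted p-value under 0.01), and the interaction gave 1 call and 11 by DESeq2. With the replicate block there were 24 calls in males and 1 of the 8 genes, and the block changed no call of the 8 genes.

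Values near 0 changed sign. Slc30a10 between WT mice was −0.01 and became 0.001802 by DESeq2 and 0.004592 with its size factors, and ran from −0.128 to 0.0883 over mice left out. Over mice left out, Slc39a14 ran from −0.0771 to 0.0711 in males, −0.004213 to 0.170 in females, −0.188 to 0.0006995 for the interaction and −0.103 to 0.0826 between WT mice. Slc39a4 ran from −0.203 to 0.0427 in males and −0.02175 to 0.224 for the interaction, Mtf1 from −0.0631 to 0.004798 in females and −0.0399 to 0.0280 for the interaction, and Slc30a1 from −0.110 to 0.0802 between KO mice.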
